A study of Mus musculus with 2 samples.

Results

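Megakaryocyte cells of the E10 mouse caudal region were selected on their measured RNA. A cell was taken when Gp9, Gp1bb, Ppbp and Treml1 together reached 500 CPM and C1qa, C1qb and C1qc together stayed under 500 CPM, where CPM is the number of unique molecular identifiers (UMIs, each standing for 1 captured RNA molecule) of a gene, scaled to a total of 1000000 UMIs in the cell. The 207 cells found this way were part of 2139 cells in all, with 202 of 1461 cells in replicate 2 and 5 of 678 in replicate 1. The study profiled sorted CD31+CD44+ cells of the E10 caudal region by droplet single-cell RNA sequencing, to compare embryos that lost the stress-response gene Nupr1 in endothelium with their littermates. Each replicate was 1 pooled library in which barcoded streptavidin tags marked 2 pools of cells. The cKO pool came from Vec-Cre;Nupr1 fl/fl embryos, in which the endothelial VE-cadherin promoter drives Cre, and the control pool from Nupr1 fl/fl and Nupr1 fl/+ littermates without Cre. The labels call the control WT, while the study's methods give it floxed alleles. Both pools were kept on a C57BL/6 background and went through the same sort. Blood cells that descend from Cre-expressing endothelium inherit the deletion.

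Megakaryocytes are the large blood cells that shed platelets. They copy their genome without dividing, build an internal membrane system and fill granules with chemokines, adhesion proteins and clotting factors, and their platelets bind damaged vessel walls through the glycoprotein Ib-IX-V complex and the integrin formed by Itga2b and Itgb3. In the mouse embryo the first megakaryocytes arise in the yolk sac, often from progenitors that can also give red cells, and enter the embryo with the circulation.

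The replicates differed in makeup. Of the cells of replicate 1, 441 passed 200 CPM of Cdh5 plus Kdr and are called endothelial-marked, 88 passed the C1q limit and are called macrophage-marked, and 144 remained. In replicate 2 the same counts were 334, 574 and 347. No cell barcode was shared by the libraries (0 barcodes). Megakaryocyte cells of replicate 2 held a median of 83236 UMIs and 6572 genes, against 55733 UMIs and 6022 genes in the other cells, and took 18.3% of all UMIs of that library. Groups were compared without a test across cells, because each genotype was 1 pool per replicate. The intervals below are 95% intervals that cover counting error only.

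The values that chose the cells ran from 513 CPM over a median of 2674 to 26762 CPM for the summed 4 genes in replicate 2. The 5 cells just inside the limit had 513, 521, 523, 524 and 561 CPM, and the 5 cells just outside it had 441, 426, 411, 390 and 359 CPM. Few cells lay near the limit. In replicate 2, 10 members were under 1000 CPM, and 13 cells with low C1q fell between 200 and 500 CPM. No C1q UMI was seen in 102 of the 202 members, and the highest summed C1q level was 320 CPM. A further 4 cells passed both limits and were left out. Of all members, 1 cell of replicate 1 with 13.2% mitochondrial UMIs missed the quality limits given in the study's methods.

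**Figure D1:**
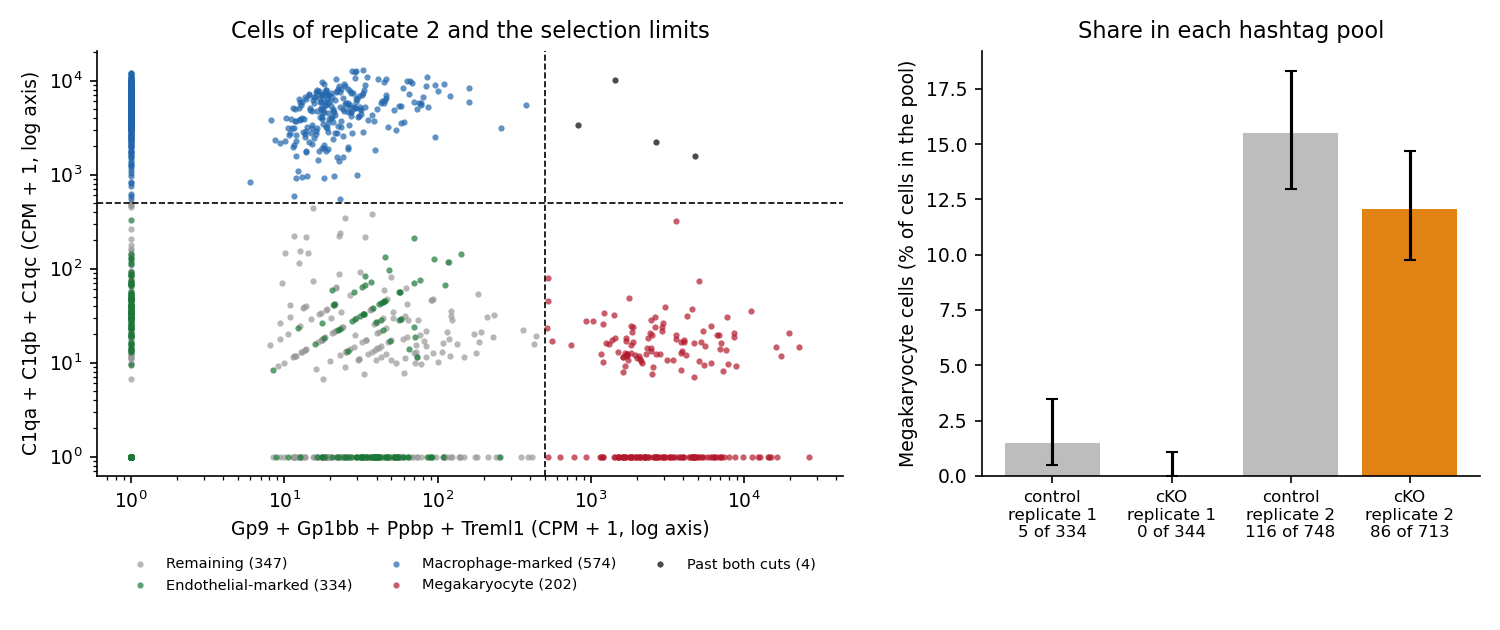
Left, each point is 1 of 1461 cells of replicate 2, placed by the summed CPM of the 4 platelet genes and of the 3 C1q genes (each plus 1, log axes), with dashed lines at the limits of 500 CPM. Right, bars give the share of megakaryocyte cells in each hashtag pool with exact binomial 95% intervals, from 0 of 344 cells in cKO replicate 1 to 116 of 748 in control replicate 2.

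The label was checked with the 3 listed markers that the selection did not use. Pf4, a platelet chemokine, Rab27b, a granule transport GTPase, and F2rl2, a thrombin receptor subunit, were all 3 detected in 198 of 202 members of replicate 2. A Pf4 UMI alone does not set the members apart, since macrophage-marked cells also held Pf4, at 497 CPM against 21098 CPM in the members. All 7 listed markers were detected in 146 members, 53 lacked 1 marker and 3 had 5 or fewer. The gap was mostly Ppbp, which was found in 73.3% of members, while Gp9 and Gp1bb were found in 100% of them, which the selection favours. Pf4 ran from 0 over a median of 19862 to 82125 CPM. It was under 1000 CPM in 11 members, 7 of them control and 4 cKO. One of these, a cKO cell of 87200 UMIs, had 3 Pf4 UMIs and 45 Gp1bb UMIs together with 22 UMIs of Myb, 8 of Kit and 7 of Mpo, which mark blood progenitors and granulocyte precursors. In replicate 1, 4 of the 5 members carried Pf4 at 24030 to 76491 CPM. The fifth had a summed value of 541 CPM, no UMI of Pf4, Ppbp or Treml1, and Kit at 126 CPM and Mpo at 72.1 CPM, so these markers went against the label.

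The promoter windows of the genes that define the platelet surface complex and of both platelet chemokines are shown because these genes had high summed levels in the members. Gp1bb, Gp9 and Ppbp are selecting genes, so the selection itself favours their high levels. GATA, ETS and RUNX proteins are the factor families best known for megakaryocyte genes. Each window is from RefSeq (GRCm38.p6) and holds 250 bases before and 50 bases after the start of the gene, written 5′ to 3′ on the gene's strand. Capitals mark matches to 4 GATA words (AGATAA, then AGATAG, then TGATAA, then TGATAG), 2 ETS words (CAGGAA or else CCGGAA) and 2 RUNX words (TGTGGT or else TGCGGT), on either strand.
Gp1bb (chr16:18622354-18622653, minus strand): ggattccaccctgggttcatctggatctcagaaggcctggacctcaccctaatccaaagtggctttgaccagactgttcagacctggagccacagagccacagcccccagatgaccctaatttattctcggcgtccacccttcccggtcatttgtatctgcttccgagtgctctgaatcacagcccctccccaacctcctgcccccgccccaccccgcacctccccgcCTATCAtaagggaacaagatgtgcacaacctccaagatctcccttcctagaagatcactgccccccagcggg
Gp1ba (chr11:70638872-70639171, plus strand): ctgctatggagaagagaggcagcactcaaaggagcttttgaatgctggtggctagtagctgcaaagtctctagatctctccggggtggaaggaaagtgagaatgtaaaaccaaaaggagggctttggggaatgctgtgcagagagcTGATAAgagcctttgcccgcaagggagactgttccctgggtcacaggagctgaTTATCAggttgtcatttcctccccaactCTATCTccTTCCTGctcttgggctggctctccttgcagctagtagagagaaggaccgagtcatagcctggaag
Gp9 (chr6:87777820-87778119, plus strand): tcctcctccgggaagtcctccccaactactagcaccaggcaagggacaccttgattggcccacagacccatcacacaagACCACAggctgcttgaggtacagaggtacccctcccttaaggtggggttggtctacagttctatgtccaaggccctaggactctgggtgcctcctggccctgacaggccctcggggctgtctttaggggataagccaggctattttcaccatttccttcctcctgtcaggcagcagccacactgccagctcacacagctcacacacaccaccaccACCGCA
Gp5 (chr16:30310732-30311031, minus strand): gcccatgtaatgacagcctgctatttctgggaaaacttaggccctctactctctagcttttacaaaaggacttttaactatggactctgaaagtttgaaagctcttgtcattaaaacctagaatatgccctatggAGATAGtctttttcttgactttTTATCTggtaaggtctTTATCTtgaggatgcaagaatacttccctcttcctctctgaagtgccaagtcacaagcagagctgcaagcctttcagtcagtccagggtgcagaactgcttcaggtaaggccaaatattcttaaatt
Pf4 (chr5:90772185-90772484, plus strand): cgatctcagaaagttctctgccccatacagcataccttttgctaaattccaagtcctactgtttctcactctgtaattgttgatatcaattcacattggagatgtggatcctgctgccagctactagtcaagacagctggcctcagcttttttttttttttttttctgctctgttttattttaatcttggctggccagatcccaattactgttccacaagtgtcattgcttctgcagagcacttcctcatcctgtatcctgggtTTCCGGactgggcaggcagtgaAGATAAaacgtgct
Ppbp (chr5:90768268-90768567, plus strand): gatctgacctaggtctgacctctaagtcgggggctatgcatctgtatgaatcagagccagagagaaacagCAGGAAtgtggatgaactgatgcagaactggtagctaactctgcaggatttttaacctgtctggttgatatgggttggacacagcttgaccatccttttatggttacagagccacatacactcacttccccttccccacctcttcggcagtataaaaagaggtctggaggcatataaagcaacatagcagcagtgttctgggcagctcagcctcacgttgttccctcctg
The Gp1ba window held 3 GATA words and 1 ETS word, all within 104 bases before the start. The Gp5 window held 3 GATA words within 115 bases before the start, and the Gp1bb window held 1, which began 22 bases before it. The Gp9 window held 2 RUNX words and no GATA or ETS word of these spellings. Its RUNX words began 171 bases before the start and at base 45 after it. Pf4 and Ppbp are neighbours whose starts lie 3917 bases apart on chromosome 5. Each window held 1 ETS word, while only the Pf4 window also had a GATA word. The Pf4 words lay after the start, the ETS word from base 15 and the GATA word from base 37. The Ppbp word began 180 bases before the start. Of the 20 genes with the largest ratio between megakaryocyte and other cells, 14 were matched in the promoter table, and 8 of these had a GATA word, 8 an ETS word and 1 a RUNX word. Of all 32851 windows in the table, 29.8% had a GATA word, 41.4% an ETS word and 22.4% a RUNX word. Counted per gene, with a word in any of its windows, the shares were 21.1%, 55.4% and 24.8% among the 6284 matched genes of those compared with other cells in the next paragraph, and 31.1%, 52.5% and 29.3% among the 280 matched genes at least 4-fold higher. These matches are letters in a sequence, and no binding was measured.

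Against all other cells of replicate 2, 7737 genes reached 10 CPM on either side. The megakaryocyte cells were at least 4-fold higher for 342 genes (4.42%) and at least 4-fold lower for 825 genes (10.7%), and the median ratio over all 7737 was 0.971. The cells were chosen by expression in the same data, so these counts describe them and carry no test. The genes that formed the platelet surface, its granules and its cytoskeleton were prominent among the higher genes, and macrophage, endothelial and granulocyte genes among the lower ones.

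All 4 measured genes of the glycoprotein Ib-IX-V complex, the receptor for von Willebrand factor, were at least 4-fold higher. Gp1bb, its beta chain and one of the selecting genes, was at 1184 CPM in the members and 9.01 CPM in the other cells, a ratio of 131 (interval 122 to 142). Gp9, also a selecting gene, was at 784 CPM against 11.5 CPM. Gp5, which the selection did not use, was at 405 CPM against 3.04 CPM (ratio 133, interval 117 to 153) and ran over single cells from 0 over a median of 356 to 1491 CPM. Gp1ba, the alpha chain that carries the ligand site, was at 93.0 CPM against 0.869 CPM (ratio 107, interval 83.4 to 139). Gp5 and Gp1ba were detected in 98.0% and 92.6% of members and in 2.96% and 0.871% of macrophage-marked cells. Both unselected subunits were thus detected in nearly every member.

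Of 18 listed adhesion genes, 15 passed the level filter, with 4 at least 4-fold higher, 3 at least 4-fold lower and the others between, and a median ratio of 1.08. The fibrinogen receptor chains Itgb3 (803 CPM, ratio 57.5, interval 54.0 to 61.3) and Itga2b (518 CPM, ratio 42.9, interval 40.0 to 46.0), the tetraspanin Cd9 (1474 CPM, ratio 10.3) and the adhesion receptor Cd226 (83.4 CPM, ratio 189, interval 134 to 275) were the higher ones. Itga2b was detected in 100% of members, with a lowest value of 68.8, a median of 457 and a highest of 3886 CPM. Cd36, a scavenger receptor found on adult platelets, had 0 UMIs in the 202 members, and was at 11.1 CPM in the other cells and at 22.0 CPM in the macrophage-marked cells. With the members set at 3 UMIs over the group, the ratio was at most 0.0161. Itgb5, an integrin chain, was at 0.836 CPM against 35.7 CPM. Pecam1 and Cd44, which encode the sorted surface proteins CD31 and CD44, were at 25.6 and 19.7 CPM in the members and at 86.2 and 47.5 CPM in the other cells. A Pecam1 UMI was seen in 74.3% and a Cd44 UMI in 65.8% of members.

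Of 18 listed activating and inhibitory receptors, 14 passed the filter, 10 were at least 4-fold higher and 1 at least 4-fold lower, with a median ratio of 15.8. The inhibitory receptor G6b (63.8 CPM, ratio 199, interval 133 to 312), the thrombin receptor subunit F2rl2 (453 CPM, ratio 152, interval 133 to 175), the collagen receptor Gp6 (68.3 CPM, ratio 142, interval 102 to 203) and the podoplanin receptor Clec1b (581 CPM, ratio 37.7, interval 35.4 to 40.1) were among the higher. The ATP-gated channel P2rx1 was at 216 CPM, 8.98 times the other cells, and was detected in 100% of members. P2ry12, the adult platelet ADP receptor that microglia and macrophages also use, was at 0.657 CPM in the members against 53.3 CPM in macrophage-marked cells. Its partner P2ry1 was at 49.3 CPM in the members and 0.465 CPM in macrophage-marked cells. One ADP receptor was thus lower and the other higher than in macrophage-marked cells. Fcer1g, the signalling chain that Gp6 needs, was at 702 CPM in the members and 1549 CPM in macrophage-marked cells.

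Of 10 filtered growth factor receptors 2 were at least 4-fold higher and 6 at least 4-fold lower. Epor, the erythropoietin receptor, was among the higher, at 73.6 CPM in the members against 7.37 CPM in the other cells (ratio 9.98, interval 9.02 to 11.1). The lower receptors included Csf1r of macrophages at 1.61 CPM against 128 CPM and Kit of progenitors at 2.09 CPM against 18.1 CPM. Thpo, which encodes thrombopoietin, had 0 UMIs in the members and 0.0134 CPM in the other cells.

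The alpha granule list had 28 genes, of which 22 passed the filter, 10 were at least 4-fold higher and 5 at least 4-fold lower, with a median ratio of 3.87. Pf4 was at 21098 CPM in the members and 347 CPM in the other cells (ratio 60.9, interval 60.1 to 61.6). Ppbp, a selecting gene, was at 1220 CPM and ran from 0 over a median of 120 to 14823 CPM, so its mean level lay far above its median. Thrombospondin 1 (Thbs1, 754 CPM, ratio 92.6), the neutrophil-attracting chemokine Cxcl5 (98.2 CPM, ratio 94.2), clusterin (Clu, 386 CPM, ratio 27.4), coagulation factor V (F5, 62.9 CPM, ratio 27.4) and the protease inhibitor Timp3 (525 CPM, ratio 26.2) were higher too. Vwf, the ligand of the Ib-IX-V complex, was at 63.1 CPM in the members, 349 CPM in endothelial-marked cells and 1.77 CPM in macrophage-marked cells, and its ratio to all other cells was 1.05 (interval 0.980 to 1.12). With CPM averaged over cells in place of summed UMIs the Vwf ratio was 0.529. The lowest ratio was that of the macrophage chemokine Ccl3, at 7.05 CPM against 814 CPM. Fga, Pdgfc and Ccl5 had 0 UMIs in the members. Fga, a fibrinogen chain, and Ccl5, a chemokine, also had 0 UMIs in the other cells.

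Genes of granule formation were less extreme. Of 28 listed, 22 passed the filter, 6 were at least 4-fold higher, none (0) was at least 4-fold lower and the median ratio was 1.72. Rab27b was at 930 CPM against 8.81 CPM (ratio 106, interval 97.6 to 114), Slc35d3, a dense granule transporter, at 153 CPM against 3.17 CPM, and the fusion protein Stx11 at 81.0 CPM against 2.23 CPM. Nbeal2, whose loss empties alpha granules, was at 11.6 CPM against 4.55 CPM, a ratio of 2.56 (interval 2.14 to 3.06). Slc18a2, the vesicle transporter for serotonin, was at 3.94 CPM against 11.3 CPM and had the lowest ratio, 0.348, but the ratio was 2.24 in the 5 members of replicate 1. All 31 genes of the cytoskeleton list passed the filter, 15 were at least 4-fold higher and 0 at least 4-fold lower, with a median ratio of 3.41. The platelet tubulin Tubb1 was at 190 CPM against 1.28 CPM (ratio 148, interval 121 to 184), Tuba4a at 839 CPM against 82.5 CPM and the integrin activator Fermt3 at 986 CPM against 139 CPM. The myosin light chain Myl9 was at 330 CPM, 11.1 times the other cells, but its median over single cells was 72.1 and its highest value 6915 CPM. The haematopoietic GTPase Rac2 (136 CPM, ratio 0.301) and the non-muscle myosin Myh10 (7.70 CPM, ratio 0.330) lay at the low end. Megakaryocytes are known to silence Myh10 as they become polyploid.

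Signalling genes followed the receptors, with 9 of 25 filtered genes at least 4-fold higher, 0 at least 4-fold lower and a median ratio of 3.34. Gnaz, a platelet G protein, was at 149 CPM against 0.936 CPM (ratio 160, interval 126 to 205), and the GTPase Rap1b, which turns integrins on, was at 2809 CPM against 277 CPM. Of 10 filtered genes of the eicosanoid and nucleotide list, 7 were at least 4-fold higher and 1 at least 4-fold lower, with a median ratio of 8.70. The platelet lipoxygenase Alox12 was at 230 CPM against 4.49 CPM, the guanylate cyclase subunit Gucy1a3 at 142 CPM against 2.74 CPM and thromboxane synthase Tbxas1 at 91.7 CPM against 9.75 CPM. Entpd1, the vessel-wall enzyme that removes ATP and ADP, was the lower one, at 0.358 CPM against 34.1 CPM.

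**Figure D2:**
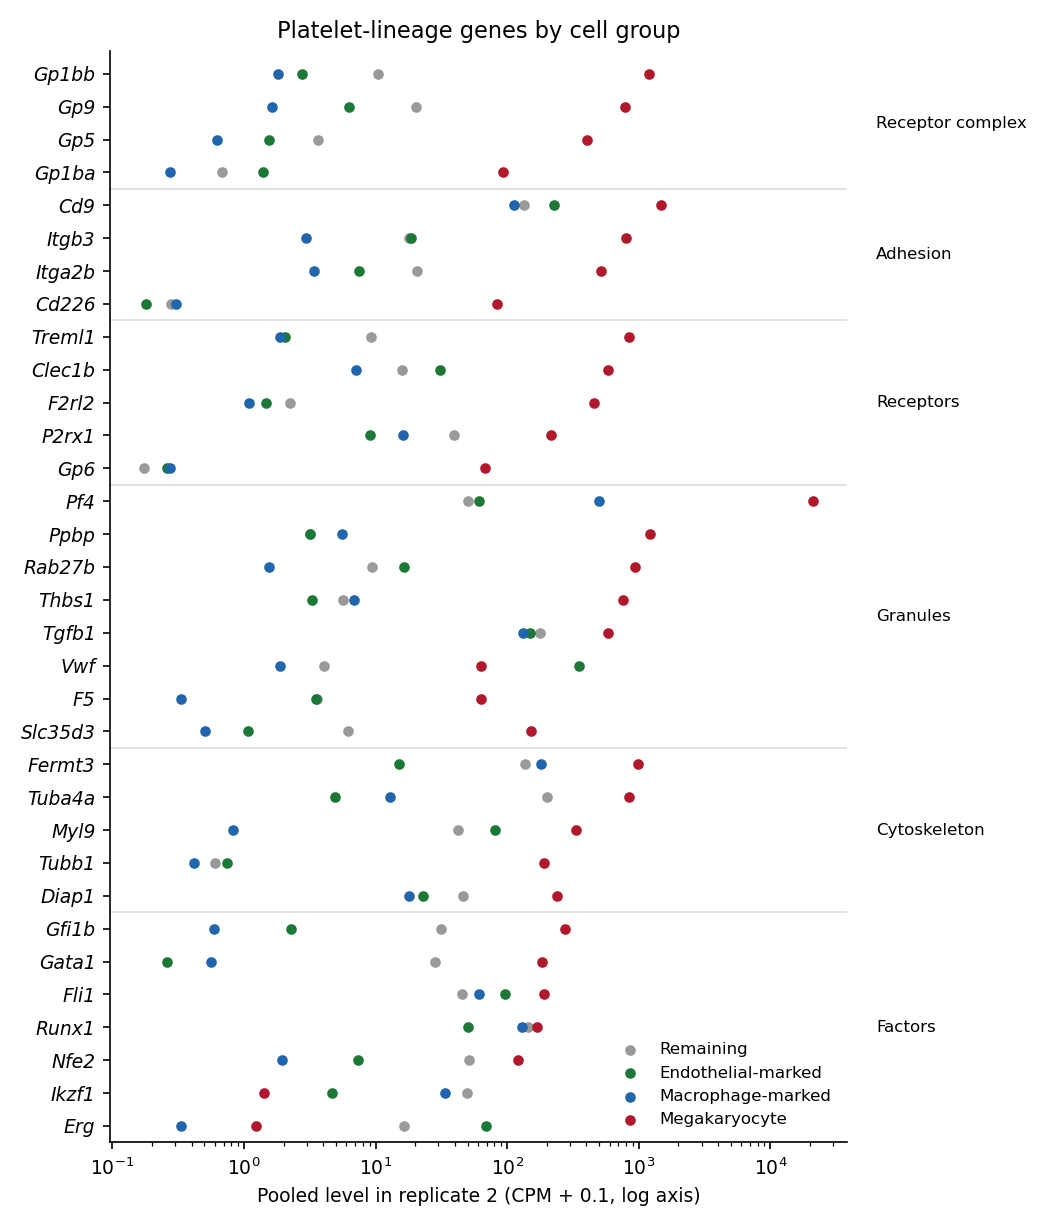
Each row is a gene, grouped by role, and each point its pooled level in 1 cell group of replicate 2 (CPM plus 0.1, log axis) for 202 megakaryocyte, 574 macrophage-marked, 334 endothelial-marked and 347 remaining cells. Most surface complex, granule and cytoskeleton genes sit far to the right in the megakaryocyte cells, but Vwf does not (63.1 against 349 CPM in endothelial-marked cells). Among the factors, Ikzf1 and Erg were lower than in the pooled other cells, and Runx1 was only 1.40 times their level.

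The 20 largest ratios among genes with at least 50 CPM in the members included genes outside these lists. A430089I19Rik had the largest ratio, 250 (interval 151 to 448), at 50.1 CPM against 0.201 CPM, but was detected in only 19.3% of members, with a highest value of 739 CPM in 1 cell. Ly6g6f, a surface protein of platelets, was at 206 CPM against 1.11 CPM and detected in 192 of 202 members. Sardh, a mitochondrial enzyme of glycine metabolism, was at 436 CPM against 3.24 CPM, with a UMI in 97.5% of members. The actin bundler Pls1 (62.7 CPM, ratio 138) and Proser2 (129 CPM, ratio 108) were also among them. The 10 smallest ratios were Tm4sf1, Hp, Slfn2, Ednrb, Ccl9, C1qa, Aif1, Cd83, Stfa1 and C1qc, all at or under 2.99 CPM in the members, and C1qa and C1qc were kept low by the selection.

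Of 25 listed megakaryocyte transcription factors, all passed the filter, 7 were at least 4-fold higher, 3 at least 4-fold lower and 15 lay between, with a median ratio of 1.75. Gfi1b, a repressor needed for platelets and red cells, was at 276 CPM against 12.9 CPM (ratio 21.3, interval 19.9 to 22.9). Gata1, the master factor of both lineages, was at 185 CPM against 11.05 CPM (ratio 16.8, interval 15.5 to 18.1) and ran from 0 over a median of 170 to 736 CPM. Its cofactor Zfpm1 (198 CPM, ratio 8.10), Tal1 (144 CPM, ratio 5.96), the platelet-release factor Nfe2 (120 CPM, ratio 5.64) and Meis1 (77.8 CPM, ratio 4.58) were also higher. In the remaining cells Gata1 was at 28.1 CPM and Nfe2 at 51.3 CPM, while the macrophage-marked cells had 0.465 and 1.83 CPM.

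The factors between the limits included Mkl1 (ratio 3.95), Fli1 (3.08), Lyl1 (2.66), Srf (2.55), Mafg (2.43), Hhex (1.75), Etv6 (1.59), Lmo2 (1.57), Mef2c (1.45), Runx1 (1.40), Mafk (1.10), Ikzf2 (0.939), Ldb1 (0.754) and Gata2 (0.505). Fli1, the ETS factor of the platelet receptor genes, was at 189 CPM in the members and 96.8 CPM in endothelial-marked cells. Runx1 was at 169 CPM in the members and 128 CPM in macrophage-marked cells. Gata2, the progenitor factor that Gata1 replaces, was at 11.8 CPM in the members and 50.1 CPM in endothelial-marked cells. In the 5 members of replicate 1 the ratio was 1.28 for Gata2 and 0.945 for Runx1, on the other side of 1. The 3 lower factors were Ets1 (3.11 CPM, ratio 0.111), Erg (1.13 CPM, ratio 0.0651) and Ikzf1 (1.31 CPM, ratio 0.0381). Among 12 filtered factors of other blood lineages, 10 were at least 4-fold lower and 0 at least 4-fold higher. The lower ones included the myeloid factor Spi1 at 18.7 CPM against 363 CPM and Irf8 at 0.836 CPM against 96.6 CPM. Mycn had the highest ratio of that list, 1.75. The red-cell factor Klf1 was at 4.00 CPM against 12.3 CPM, and Cebpe had 0 UMIs in the members.

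Markers of macrophages and granulocytes and most progenitor and endothelial markers were low, while the erythroid and mesenchymal lists were mixed. All 10 macrophage markers were at least 4-fold lower, but C1qa, C1qb and C1qc are among them, which the selection kept low and which define the macrophage-marked cells. The other 7 summed to 12.9 CPM in the members against 2179 CPM in macrophage-marked cells and 48.4 CPM in endothelial-marked cells. All 8 filtered granulocyte and monocyte markers were lower and summed to 22.7 CPM against 2609 CPM in the remaining cells. Of the 8 filtered stem and progenitor markers 7 were lower, with Ptprc, the pan-leukocyte antigen, at 0.836 CPM and Cd34 at 8.06 CPM. The other was Mycn, with a ratio of 1.75 (interval 1.59 to 1.93), but 0.570 in the 5 members of replicate 1. Of 10 endothelial markers 7 were lower, but Esam (111 CPM), which platelets also carry, Egfl7 (167 CPM) and Kdr (27.4 CPM) lay within 4-fold, and the list summed to 349 CPM against 6309 CPM in endothelial-marked cells. Mast cell markers summed to 1.73 CPM. Of 8 listed mesenchymal genes 4 passed the filter, with 1 at least 4-fold higher, 2 at least 4-fold lower and a median ratio of 1.41. They summed to 78.4 CPM, of which the muscle actin Actc1 gave 52.9 CPM. Twist1, a mesenchymal factor, was the higher gene at 24.8 CPM against 4.13 CPM, and 4 of the 8 had 0 UMIs. The members' own 7 markers summed to 26512 CPM.

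The erythroid list summed to 845 CPM in the members and 879 CPM in the remaining cells. Of its 10 genes 5 passed the filter, with 2 at least 4-fold higher, 2 at least 4-fold lower and 1 between. Hbb-bh1, an embryonic beta-like globin, made up most of it at 730 CPM against 39.0 CPM in the other cells (ratio 18.7, interval 17.9 to 19.5). It was detected in 56.9% of members, against 10.8% of macrophage-marked, 5.39% of endothelial-marked and 20.2% of remaining cells, and its highest cell had 18280 CPM with a median of 13.4 CPM. After each cell was thinned to 6000 UMIs the shares were 28.7%, 1.05%, 0.299% and 4.32%. The other embryonic globins did not follow it. Hbb-y was at 23.8 CPM against 425 CPM in the remaining cells, and Hba-x at 4.42 CPM against 297 CPM. Against all other cells, as for Hbb-bh1 above, their ratios were 0.146 and 0.0394. Slc4a1, the red-cell anion exchanger, had 0 UMIs in the members, and Alas2, the haem synthesis enzyme of red cells, was at 0.836 CPM. Epor was the other higher gene (ratio 9.98), and Klf1 lay within 4-fold (ratio 0.325). The high Hbb-bh1 and Epor levels thus stood beside low levels of Hba-x, Slc4a1 and Alas2.

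Platelet RNA was also found at low levels outside the selected cells. In macrophage-marked cells Pf4 was at 497 CPM with a UMI in 96.5% of cells, against 61.3 CPM in endothelial-marked and 50.0 CPM in remaining cells. Pf4 UMIs per Ppbp UMI numbered 17.3 in the members, 19.9 in endothelial-marked and 16.3 in remaining cells but 91.5 in macrophage-marked cells, so macrophage-marked cells had Pf4 in excess of the ratio of the members. Gp1bb UMIs per Ppbp UMI numbered 0.971 in the members and 3.34 in the remaining cells. Gp9 was detected in 8.54% of macrophage-marked, 15.6% of endothelial-marked and 54.2% of remaining cells before thinning and in 0.697%, 2.99% and 11.8% after it, against 93.6% of members. Whether this RNA was free in the droplets or made in the cells was not tested.

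Within the selected cells, levels varied widely. The 202 cells were split into a low, a middle and a high tier by the summed selecting genes (67, 67 and 68 cells), whose medians were 1623, 2674 and 6279 CPM, while their median depths were alike at 81915, 83364 and 84670 UMIs. These tiers are ranges of a value and not cell types. Ppbp was at 47.0 CPM in the low and 3159 CPM in the high tier, which the split favours. Genes the split did not use also differed, although genes that vary with the selecting ones are favoured by it. Pf4 was at 10337 CPM in the low and 31685 CPM in the high tier, Myl9 at 40.6 and 762 CPM, Alox12 at 45.0 and 472 CPM, Gp6 at 21.9 and 122 CPM and F5 at 18.7 and 118 CPM. Rab27b was at 670 and 1197 CPM. Gata1 was at 142 and 234 CPM, Gfi1b at 233 and 295 CPM, and Runx1 at 181 and 160 CPM.

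Hbb-bh1 went the other way, with 1386, 688 and 156 CPM in the low, middle and high tier. Myb was at 7.41 and 0.520 CPM in the low and high tier and Kit at 4.82 CPM and 0 CPM, but 33 of 40 Myb UMIs and 16 of 26 Kit UMIs of the low tier were in its 10 cells with Pf4 under 1000 CPM. Without these cells the low tier had 1.49 CPM of Myb, 2.13 CPM of Kit and 1138 CPM of Hbb-bh1. The 21 S-phase genes summed to 2279, 1499 and 783 CPM in the low, middle and high tier, and the 25 genes of mitosis and cytokinesis to 3675, 3386 and 1980 CPM. In cells thinned to 6000 UMIs the mean S-phase count was 13.8, 9.36 and 4.28 UMIs and the mean mitotic count 19.3, 18.7 and 11.3 UMIs. No S-phase UMI was left in 15 cells of the high tier (22.1%), 1 cell of the middle tier (1.49%) and 0 cells of the low tier. After thinning, cell cycle genes were therefore detected in all low-tier cells and in fewer of the high tier. At full depth every member had UMIs of these genes, with lowest sums of 37.4 CPM for S phase and 41.6 CPM for mitosis. The tiers thus differed in level.

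Over all members the S-phase mean after thinning was 9.13 UMIs, against 11.2 in macrophage-marked, 6.46 in endothelial-marked and 13.98 in remaining cells. The mitotic mean was 16.4 UMIs, against 15.4, 9.94 and 16.3. None (0) of 21 S-phase genes and 1 of 25 mitotic genes differed by 4-fold from the other cells. The exception was Cit, the citron kinase of the dividing furrow, at 15.4 CPM against 3.65 CPM (ratio 4.22, interval 3.55 to 5.02). Ect2, the exchange factor that drives furrow closure and is switched off when megakaryocytes become polyploid, was at 4.30 CPM against 15.1 CPM (ratio 0.284, interval 0.221 to 0.361), the lowest of that list. Of 13 genes tied to polyploidy, 1 was at least 4-fold higher, 1 at least 4-fold lower and 11 lay between. The median ratio of that list was 0.784. Over all 7737 compared genes, 4.42% were at least 4-fold higher and 10.7% at least 4-fold lower. One gene past the limit therefore does not set the mitotic or the polyploidy list apart. The inhibitor Cdkn2d was the higher gene, at 475 CPM against 43.7 CPM, and the cyclin Ccnd1 the lower, at 0.717 CPM against 61.5 CPM. The cyclin Ccnd3 was at 604 CPM against 181 CPM. The 3 D-type cyclins were unequal, since Ccnd2 was at 33.3 CPM against 86.1 CPM. DNA content was not measured.

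Across the 202 thinned members, 2763 genes with at least 50 CPM were ranked by Spearman correlation with a score. The score was the summed UMIs of Pf4, Rab27b, F2rl2, Itga2b, Gp5 and Gp6. Most of it was Pf4, which was at 21098 CPM in the members, far above the other genes of the score. The points are cells of 1 library at equal depth, and no test was made. The 10 highest were Rasgrp2 (rho 0.65), Gp1bb, Tmsb4x, Treml1, Myl9, Myl6, Clec1b, Gp9, Tpm2 and Dstn (0.57). Of these, Gp1bb, Treml1 and Gp9 are selecting genes. The cells ranked included the 11 members with Pf4 under 1000 CPM, and their share in the ranking was not tested. Rasgrp2 activates the integrin-regulating GTPases, and Tmsb4x, Myl9, Myl6, Tpm2 and Dstn all encode actin-binding or myosin proteins. The 10 lowest included Npm1 (rho -0.64), Rps20, Ptma, Hmgb2, Hmgb1, Rpl14, Ncl, H2afz and Anp32b (-0.54), which encode nucleolar, chromatin and ribosomal proteins. Npm1 was at 4805, 3708 and 2107 CPM in the low, middle and high tier. The score itself had a rho of 0.09 with the cell's full depth.

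**Figure D3:**
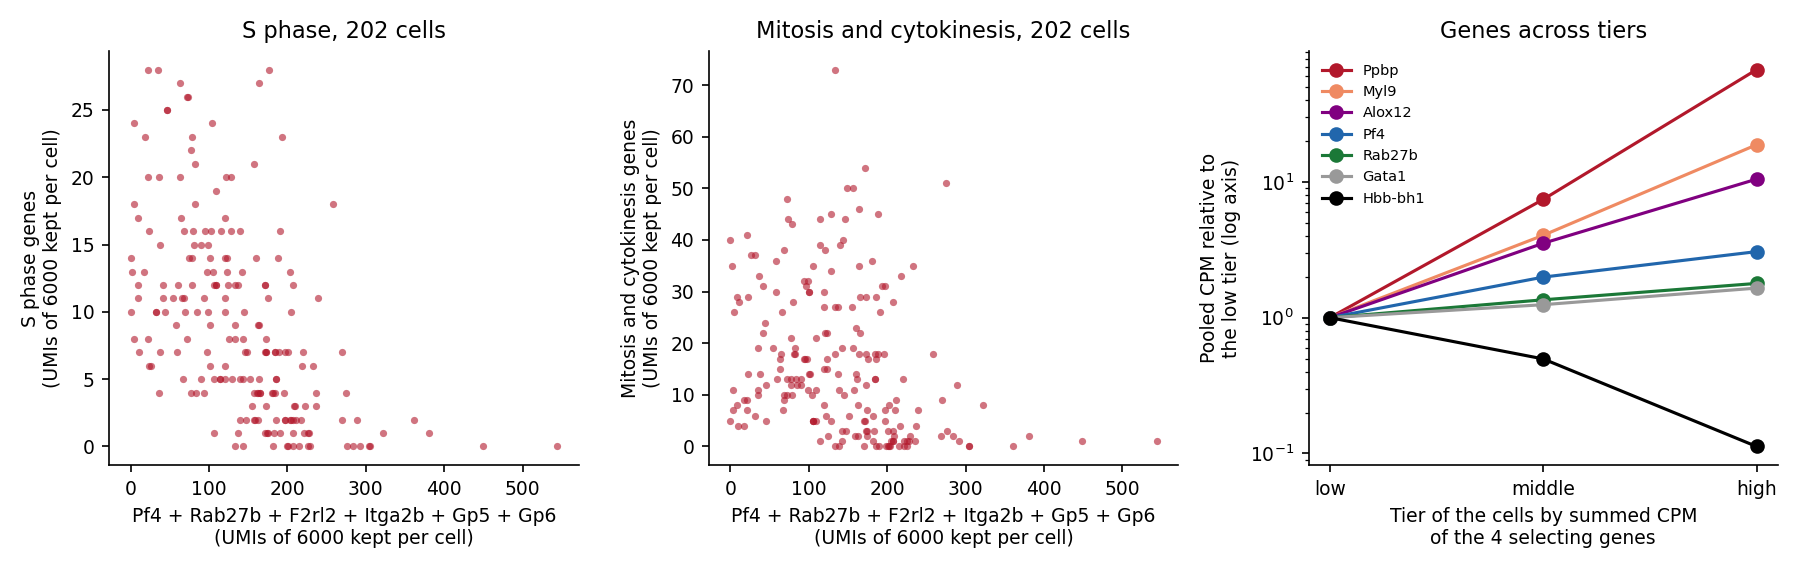
Left and middle, each point is 1 of 202 megakaryocyte cells of replicate 2 thinned to 6000 UMIs. The x axis gives UMIs of 6 platelet genes, most of them Pf4, and the y axis UMIs of S-phase or mitotic genes. Right, pooled CPM of 7 genes in tiers of the cells relative to the low tier (log axis), where Ppbp and Myl9 climb most, Gata1 and Rab27b little, and Hbb-bh1 falls.

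The comparison of cKO with control asked whether megakaryocyte cells changed in number when endothelial Nupr1 was lost. In replicate 2 they were 116 of 748 control cells (15.5%, exact binomial interval 12.99 to 18.3) and 86 of 713 cKO cells (12.1%, interval 9.76 to 14.7), a difference of -3.45 percentage points. In replicate 1 they were 5 of 334 control cells (1.50%, interval 0.488 to 3.46) and none (0) of 344 cKO cells (interval 0 to 1.07). The mean of the control pools was 8.50% ± 9.91 (SD, n = 2) and that of the cKO pools 6.03% ± 8.53 (SD, n = 2). The difference was -2.47 points, with p = 0.667 by a two-sided exact permutation test over the 4 pools. The smallest p that this test allows is 0.333. It ignores that each cKO pool shared a library with its control pool, so the unlike makeup of the replicates enters its spread. Within replicates 1 and 2 the differences were -1.50 and -3.45 points. With the replicate as a block the exact permutation test gave p = 0.5, its smallest possible value, so neither test can decide the question. The share was lower in cKO in 2 of 2 replicates. Members of the low, middle and high tier were 46.3%, 34.3% and 47.1% cKO, so the genotypes were mixed along the whole range.

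RNA levels of the 2 genotypes could be compared only within replicate 2, with 1 pool each, so no test was made. Of 4865 genes with at least 20 CPM over the members, 8 (0.164%) were at least 2-fold higher in cKO, 3 (0.0617%) were at least 2-fold lower and 99.3% lay within 1.5-fold, with a median ratio of 0.995. The 7 megakaryocyte markers had ratios of 0.923 (Rab27b) to 1.11 (Ppbp), and the 4 genes of the Ib-IX-V complex of 0.931 (Gp1ba) to 1.02 (Gp5). Among them Gp9, Gp1bb, Ppbp and Treml1 are selecting genes with the same limit in both genotypes, so the selection favours like levels. Pf4 was at 21480 CPM in control and 20625 CPM in cKO members (ratio 0.960, interval 0.954 to 0.967). Of 18 tested megakaryocyte transcription factors 0 reached 2-fold in either direction, and they ran from 0.873 (Runx1) to 1.24 (Lyl1). Of 29 cytoskeleton genes 0 reached 2-fold, with Myl9 lowest at 0.708 and Rac2 highest at 1.42. The S-phase genes had a median ratio of 1.03 and the mitotic genes of 1.01.

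The 8 genes at least 2-fold higher in cKO members were Ifitm1, Hbb-y, Vim, Hebp1, Mest, Rgs2, Gja4 and Ptprcap, and 7 of them fell under 2-fold when the cell with most UMIs of the gene was left out. Ifitm1, an interferon-induced membrane protein gene, had 678 UMIs in cKO and 27 in control members, but 1 cKO cell held 666 of them, and without it the ratio of 31.1 became 0.557. That cell was the one with 3 Pf4 UMIs described above, and it also led Rgs2 (125 UMIs) and Ptprcap (69 UMIs). A second cKO cell, of 58725 UMIs, held 53.4% of the Hbb-y UMIs of all members (213 UMIs) and led Vim (165 UMIs), Mest (126 UMIs) and Gja4 (109 UMIs). It had 1318 Pf4 UMIs, a selecting sum of 12635 CPM, an endothelial marker sum of 6760 CPM and an erythroid sum of 3900 CPM, where the members' medians were 309 and 133 CPM. Without the pair, 1 gene was at least 2-fold higher and 3 at least 2-fold lower.

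Hebp1, which encodes a haem-binding protein, was the gene left. It was at 32.2 CPM in cKO and 11.9 CPM in control members (ratio 2.72, interval 2.16 to 3.43), was detected in 76 of 86 cKO and 48 of 116 control members, and had at most 9 UMIs in any cell. The ratio was 2.97 in the other cells of replicate 2 and 2.97 in all cells of replicate 1. Cells other than the megakaryocyte cells thus showed a ratio of like size, in both replicates.

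The 3 genes at least 2-fold lower in cKO members were Hspb1, Ppp6r1 and Ercc1. Hspb1, a small heat shock protein gene, was at 126 CPM in cKO and 285 CPM in control members (ratio 0.443, interval 0.411 to 0.477), with a UMI in 44 of 86 and 68 of 116 cells. Its ratio in the other cells of replicate 2 was 0.902. The cell with most Hspb1 held 288 of 2639 control UMIs, and without it the ratio was 0.492. Ppp6r1, a phosphatase subunit gene, had a ratio of 0.450 in the members and 0.604 in the other cells, and the DNA repair gene Ercc1 0.496 and 0.530. In all cells of replicate 1 their ratios were 1.05 and 1.06, so these differences were not seen there. The next lowest were Xist, Gng11, Klhdc4, C1galt1, Actc1, Iah1 and Vps13a, at 0.521 to 0.658. Dusp2 (1.99) and Erdr1 (1.82) completed the 10 highest.

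**Figure D4:**
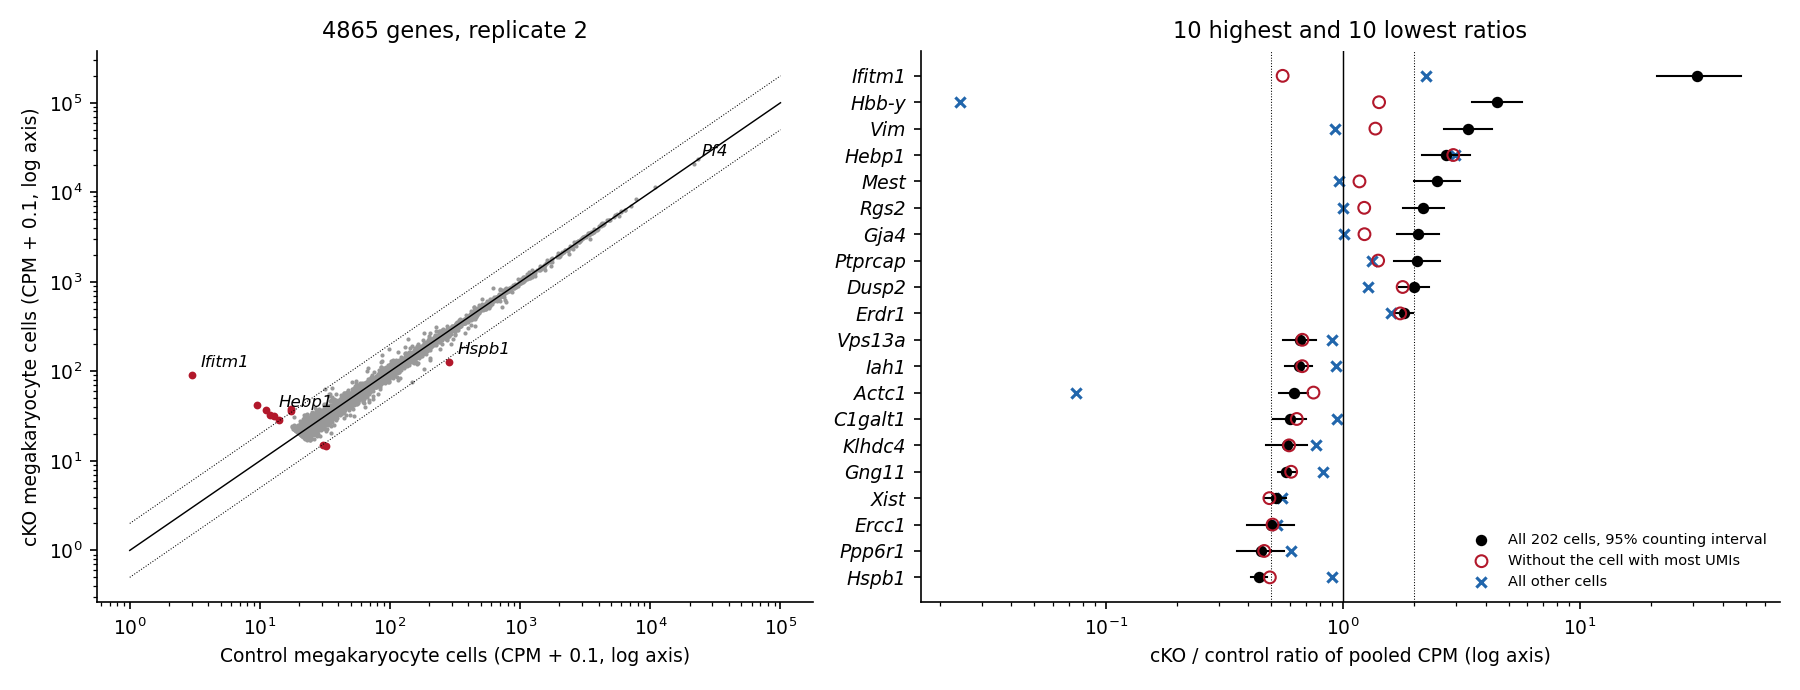
Left, each point is 1 of 4865 genes at its pooled level in control and cKO megakaryocyte cells of replicate 2 (CPM plus 0.1, log axes), with the line of equality, dotted 2-fold lines and the 11 genes past them in red. Right, the ratio of the 10 highest and 10 lowest genes with 95% counting intervals, where open circles leave out the cell with most UMIs and crosses give all other cells. Without that cell Ifitm1 moves from 31.1 to 0.557 and Hebp1 from 2.72 to 2.92.

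Nupr1 itself was at 2.05 CPM in control members (19 UMIs in 15 of 116 cells) and 0.267 CPM in cKO members (2 UMIs in 2 of 86 cells), a ratio of 0.130 (interval 0.0147 to 0.541), and its ratio in the other cells of replicate 2 was 0.0655. It was detected in few members of either genotype. Its level over all members was 1.25 CPM, against 22.2 CPM in macrophage-marked cells. The pools also differed in Xist, the RNA of the inactive X chromosome. It was detected in 112 of 116 control members (96.6%) and 52 of 86 cKO members (60.5%, interval 49.3 to 70.8). None (0) of the members had a UMI of the Y-linked genes Ddx3y, Eif2s3y, Kdm5d and Uty, nor had any other cell of replicate 2, where Xist was detected in 99.1% of the other control cells and 57.3% of the other cKO cells. Whether Y-linked reads were filtered in replicate 2 was not tested, and the 0 does not show that male cells were absent. In replicate 1, 90.7% of the cKO cells and 1.82% of the other control cells had a Y-linked UMI. Embryo sex and genotype cannot be told apart in replicate 1, where the 5 members were all control cells with Xist. In the Xist-positive members of replicate 2, 52 cKO and 112 control cells, the ratio was 2.69 for Hebp1, 0.429 for Hspb1 and 0.0968 for Nupr1.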

How the data were processed

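Single-cell RNA was measured by 10x Chromium in 2 pooled libraries of sorted CD31+CD44+ cells. The authors deposited UMI counts per gene and cell, with a hashtag label for each cell. The submitters' processing notes name Cell Ranger 5.0.1 and mm10, and the study assigned hashtags with Seurat's HTODemux. Hashtag singlets only were deposited, no doublet caller was run here and doublets within a tag remain. The study's limits of over 1800 genes, over 6000 UMIs and under 5% mitochondrial UMIs were tried as an alternative.

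Counts were summed over cells and given as CPM. A gene was compared with other cells from 10 CPM on either side and between genotypes from 20 CPM over the members. Ratio intervals are exact conditional binomial intervals, shares have Clopper-Pearson intervals at 95%, a count of 0 was set to 3 UMIs, and thinning kept 6000 UMIs per cell. Named genes were the 20 highest and 10 lowest ratios with at least 50 CPM, the 10 highest and 10 lowest genotype ratios, the 10 highest and 10 lowest correlations (leaving out the 6 genes of the score) and the listed genes. The members and the lists were chosen with earlier results of these data known. Older gene symbols were matched through RefSeq synonyms. Python 3.11.15, pandas 2.3.3 and scipy 1.17.1 were used, and edgeR 4.0.16 gave TMM scaling factors for an alternative. Other limits, scalings, level minimums and left-out cells were also tried. Scripts were tested on simulated data. A few genes that this rule named are not reported here.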

Additional observations from a re-analysis of the deposited data

How the results depend on the processing

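The share of megakaryocyte cells and its genotype difference kept their direction under every alternative run. With the replicate as a block the difference was again -2.47 points (two-sided exact permutation test, p = 0.5, the smallest p that 2 pairs allow), and leaving out either replicate gave -3.45 to -1.50 points. Counts of genes moved more. Genes at least 4-fold higher or lower than other cells numbered 2291 and 2416 with no level minimum and 198 and 222 with a minimum of 50 CPM. TMM scaling gave 371 and 795 and the mean over cells 335 and 970. Genes at least 2-fold higher or lower in cKO numbered 1220 and 934 with no minimum, 0 and 1 with a minimum of 50 CPM, and 19 and 13 at a fold of 1.5. With the selection made on thinned counts both numbered 5, a limit of 250 CPM gave 5 lower genes and one of 1000 CPM gave 3 higher genes. Without the cell with most UMIs of each gene 1 gene was higher. In alternatives added after seeing the data, members with at least 1000 CPM of Pf4 gave 2 higher genes and leaving out the pair of cells that led the higher genes gave 1. The ratio of Ifitm1 between genotypes reversed to 0.557 without its top cell. With CPM averaged over cells, ratios to other cells became 299 for Cd226, 153 for Cxcl5, 25.5 for Gata1, 0.195 for Slc18a2 and 0.529 for Vwf. With the 5 members of replicate 1, ratios crossed 1 for 61 of 308 named or listed genes. Of these, 5 had been at least 4-fold lower, namely Myb (1.05), Cpa3 (3.50), Csf2rb (1.26), Lgals1 (1.38) and Ifitm1 (7.07), and the other 56, such as Slc18a2 (2.24), Gata2 (1.28) and Fcer1g (3.52), had been within 4-fold. The other cells of replicate 1 also had a different makeup, with 441 endothelial-marked and 88 macrophage-marked cells against 334 and 574 in replicate 2. Of the 5 members, 1 had no Pf4 UMI and a different 1 had 13.2% mitochondrial UMIs. The cause of the crossings was not tested. Intervals cover counting error only, and with 1 pool per genotype and replicate no gene could be tested.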

Other observations

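The megakaryocyte cells also differed from the other cells of replicate 2 in genes of signalling to neighbours and of acute responses. Over all 7737 compared genes, 10.7% were at least 4-fold lower and 4.42% at least 4-fold higher. Of 16 listed niche factors 8 passed the level filter, 6 were at least 4-fold lower and 0 at least 4-fold higher. Tgfb1, a growth factor stored in platelets, was at 584 CPM against 153 CPM, and Pdgfb, a mitogen of vessel-wall cells, at 58.1 CPM against 14.8 CPM. Igf2, a fetal growth factor, was at 10.2 CPM against 522 CPM, and the Notch ligand Dll4 at 0.358 CPM against 14.7 CPM. Of 17 filtered immediate-early genes 7 were at least 4-fold lower and 10 lay between, with a median ratio of 0.468. Atf3 was at 17.6 CPM against 292 CPM and Fos at 30.2 CPM against 237 CPM. The list as a whole was not low in the members. It summed to 6146 CPM there, against 5087 CPM in macrophage-marked, 5601 CPM in endothelial-marked and 4661 CPM in remaining cells. Klf2, a factor of the same list, was at 1280 CPM against 411 CPM, and Egr1 at 156 CPM against 65.8 CPM. Of 8 filtered genes of the integrated stress response 4 were at least 4-fold lower, among them Nupr1 itself and the serine synthesis gene Phgdh (54.9 CPM against 399 CPM), while Atf4, which drives that response, was at 270 CPM against 203 CPM. Of 14 filtered inflammatory and immune genes 9 were at least 4-fold lower, and B2m, the light chain of class I molecules, was at 160 CPM against 698 CPM.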
